A study of Homo sapiens with 12 samples.

Results

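MYC and the factors that build ribosomes were examined in 16HBE cells, an immortalised human bronchial epithelial line, after inhibition of Ras, MEK or ERK. The set is a list of 45 genes, comprising MYC and 44 proteins of RNA polymerase I, the nucleolus and the small and large ribosomal subunit assembly lines, chosen by name. The list was drawn up with earlier results of these data known. Probes carrying these gene symbols were kept if their detection p-value was under 0.01 on all 3 arrays of any group, and the brightest kept probe stood for its gene. By that rule 41 of the 45 were measured, among 10532 measured genes in all. Of the other 4, the 1 probe named for NPM1 was detected on no array, and GNL3, EBNA1BP2 and WDR43 were not analysed here. Among the 41, 37 were detected on all 12 arrays. POLR1A met the rule through the DN Ras arrays alone, UTP20 and RRP9 through the DN Ras and control arrays, and MYBBP1A through every group but the MEK inhibitor cells.

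All 4 groups were stable infections with the retroviral vector pQCXIP, and each had 3 arrays. MEK inhibitor cells carried the empty vector and received GSK1120212 at 500 nM for 4 days. ERK inhibitor cells carried the empty vector and received SCH772984 at 1 uM for 4 days. DN Ras cells carried the vector expressing dominant-negative Ras N17, and for these cells no solvent and no time of treatment is labelled. Control cells, also with the empty vector, were kept for 4 days in DMSO, the solvent. The design names 3 independent experiments that each supplied 1 sample of every group, all from 1 cell line. The same 3 control arrays serve each comparison with control, so those comparisons are not independent of each other and their values are given side by side.

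A ribosome is assembled in the nucleolus, where RNA polymerase I transcribes a long precursor rRNA. Small nucleolar ribonucleoproteins, or snoRNPs, then methylate and pseudouridylate the precursor, and many assembly factors cut, fold and export the small and large subunits. MYC is a transcription factor that binds E-box DNA as a dimer with MAX and is known to activate genes at every one of these stages. ERK signalling is known to raise MYC transcription and to stabilise the MYC protein, and only transcripts were measured here.

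The E-box letters CACGTG were searched on both strands of promoter windows, because they are the site MYC and MAX are known to bind and the members tended to move together. The windows are from RefSeq on GRCh38.p14 and run from 250 bases before to 50 bases after a gene start. The table held 40 windows for 33 of the 41 measured members, and MYC, NOP58, NOLC1, RRP12, RRP1B, RRS1, BOP1 and URB2 had no entry. An E-box occurred in 16 of the 40 member windows, or 40.0%, against 9.45% of the 12415 windows of all measured genes and 7.26% of all windows in the table. Base composition was close, with a median GC content of 62.2% in the member windows and 65.0% in those of all measured genes. The following 30-base stretches show the E-box in capitals in 6 members that were lower in at least 1 comparison with control.
MRTO4: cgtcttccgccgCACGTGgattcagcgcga
IMP4: ttctcccggaccCACGTGgaagcggcactc
PNO1: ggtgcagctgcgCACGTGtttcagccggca
NOP2: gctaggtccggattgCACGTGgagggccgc
MYBBP1A: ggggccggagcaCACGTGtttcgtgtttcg
LYAR: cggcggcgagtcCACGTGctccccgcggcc
For comparison, 4 members with an E-box that passed the test in no comparison with control are given in the same way.
FBL: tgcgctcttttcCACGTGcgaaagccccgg
GAR1: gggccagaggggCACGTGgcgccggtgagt
BYSL: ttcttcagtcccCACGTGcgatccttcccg
PES1: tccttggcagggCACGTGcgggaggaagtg

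The stretches lie on the plus strand at chr1:19251807-19251836 for MRTO4, chr2:130342900-130342929 for IMP4, chr2:68157885-68157914 for PNO1, chr4:109815781-109815810 for GAR1 and chr6:41921515-41921544 for BYSL. They lie on the minus strand at chr12:6568242-6568271 for NOP2, chr17:4555340-4555369 for MYBBP1A, chr4:4290068-4290097 for LYAR, chr19:39846356-39846385 for FBL and chr22:30591880-30591909 for PES1. The LYAR site begins 64 bases before the gene start. The other 9 printed sites begin after it, between base 7 in FBL and base 36 in NOP2. Of the 18 E-boxes in the member windows, 11 began at or after the start, or 61.1%, against 10.2% of the 1338 E-boxes in the windows of all measured genes. In these members the matched letters were therefore mostly in the first transcribed bases, whereas over all measured genes most matches lay upstream. These are matches of letters and say nothing of binding in these cells.

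**Figure D1:**
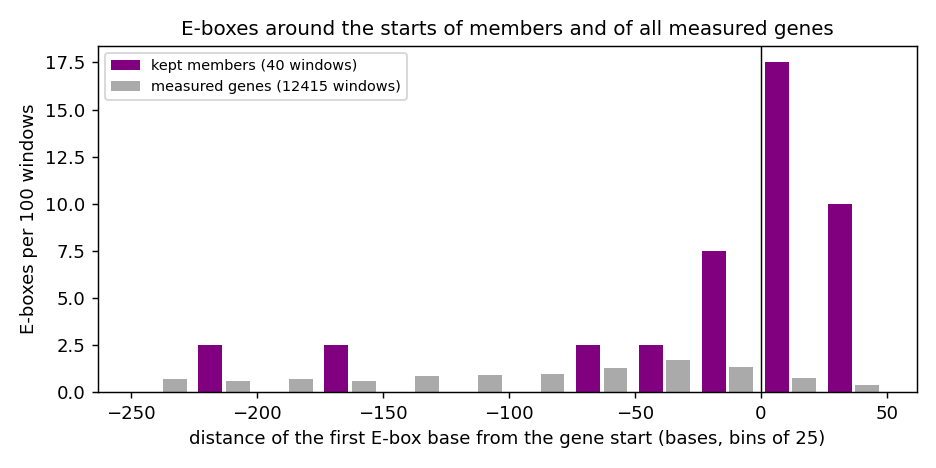
E-boxes per 100 promoter windows (vertical axis) by the distance of the first E-box base from the gene start in bins of 25 bases (horizontal axis), for 40 windows of measured members (purple) and 12415 windows of all measured genes (grey). The member bars are tallest in the first bin after the start, at 17.5 per 100 windows, and next tallest in the bin after that, at 10.0.

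The data behind these comparisons were even between arrays. Between 16825 and 18295 of 47322 probes were detected per array, each from a median of 21 or 22 beads, and arrays of a group correlated at 0.978 to 0.993. DN Ras replicate 3 stood somewhat apart: 85 genes lay at least 2-fold beyond both other DN Ras arrays, against at most 22 for any other array. EGR1, DUSP6, PHLDA1, ETV5 and SPRY4, which ERK signalling is known to induce, fell in every comparison with control, with EGR1 differences of −3.20, −3.24 and −2.70 on the log2 scale with MEK inhibitor, ERK inhibitor and DN Ras. DUSP6 and SPRY4 met the detection rule through the control arrays alone, so a difference from control was built into their selection. ETV5 was detected on 0 of 3 MEK inhibitor and 1 of 3 DN Ras arrays. EGR1 and PHLDA1 were detected on all 3 arrays of every group. The 6 epithelial markers were detected in every group, and the leukocyte markers PTPRC and CD3D and the 3 endothelial markers on no array. The leukocyte markers CD14 and CD68 and the fibroblast marker COL1A1 were detected on all 12 arrays, while COL3A1 and DCN, other fibroblast markers, were detected on none. Of the remaining fibroblast markers, COL1A2 was detected on 1 DN Ras array, and PDGFRB on 2 MEK inhibitor arrays and 1 DN Ras array. Neither was detected on a control or ERK inhibitor array. CD14 and CD68 passed in no comparison with control. COL1A1 rose by 0.68, 0.80 and 0.47 with MEK inhibitor, ERK inhibitor and DN Ras (limma, adjusted p = 0.000949, 0.000457 and 0.0168). The epithelial keratin KRT18 fell by 0.97, 0.60 and 1.02 (limma, adjusted p = 0.000193, 0.0122 and 0.000206), and KRT8 fell by 0.77 with MEK inhibitor and by 0.48 in DN Ras cells (limma, adjusted p = 0.00188 and 0.0435). KRT19 fell by 0.41 with MEK inhibitor (limma, adjusted p = 0.0433). Other epithelial markers rose, CDH1 by 0.64 with ERK inhibitor (limma, adjusted p = 0.00472) and KRT5 by 0.63 in DN Ras cells (limma, adjusted p = 0.0296). EPCAM passed in no comparison with control. The part of these markers in the results was not tested. HRAS, 1 of the Ras genes, differed in DN Ras cells by 0.26 from control (adjusted p = 0.226), and the labels do not say which Ras gene the construct came from. In bulk samples such as these, fewer cells of a kind and less RNA per cell cannot be told apart.

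MYC was lower under all 3 forms of inhibition. Its log2 intensity was 7.40, 7.63 and 7.66 in MEK inhibitor cells, 7.68, 7.25 and 7.25 in ERK inhibitor cells and 7.72, 7.10 and 7.41 in DN Ras cells, against 8.60, 8.13 and 8.23 in control cells. Every array of the inhibited groups lay below every control array, and control replicate 1 was the highest of all. Before normalization the same probe read 191.74 to 298.09 in MEK inhibitor cells, 246.19 to 300.42 in ERK inhibitor cells and 185.74 to 292.91 in DN Ras cells, against 351.09 to 422.02 in control cells. Raw values are not adjusted for the brightness of the whole array, so they give no size of the MYC change. For example, NCL read 1463.55 on MEK inhibitor replicate 1, against 1844.56 to 2082.91 in control cells. After normalization NCL differed by 0.06 with MEK inhibitor.

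With MEK inhibitor, MYC fell by 0.76 ± 0.17 on the log2 scale (SE, 3 arrays a group), to 59.2% of control (limma, adjusted p = 0.00695). With ERK inhibitor it fell by 0.93 ± 0.17, to 52.7% of control (limma, adjusted p = 0.0028). In DN Ras cells it fell by 0.91 ± 0.17, to 53.1% of control (limma, adjusted p = 0.00299). Adjusted p-values here and below are Benjamini-Hochberg values over all 10532 genes, and 0.05 was the threshold. A second, dimmer MYC probe differed by −0.51, −0.47 and −0.68 in the same comparisons, with adjusted p over all probes of 0.138, 0.188 and 0.0576, so its differences had the same sign and did not pass. Between the inhibited groups no MYC difference passed: MEK inhibitor minus ERK inhibitor was 0.17 (95% interval −0.20 to 0.54), DN Ras minus MEK inhibitor −0.16 (−0.52 to 0.21) and DN Ras minus ERK inhibitor 0.01 (−0.35 to 0.38).

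The other genes of the MYC network moved unevenly. MYCN, the neuronal relative of MYC, had log2 intensities of 4.21, 4.37 and 4.55 in MEK inhibitor cells, 5.10, 4.67 and 4.73 in ERK inhibitor cells and 4.96, 4.91 and 4.38 in DN Ras cells, against 6.70, 5.71 and 6.02 in control cells. The groups did not overlap with control, and MYCN was detected on 0 of 3 MEK inhibitor, 1 of 3 ERK inhibitor and 2 of 3 DN Ras arrays, against 3 of 3 control arrays. It met the detection rule through the control arrays alone, so a difference from control was built into its selection. It was at least 2.45-fold lower with MEK inhibitor (limma, adjusted p = 4.14e-05), where the control mean is set against the dimmest probes detected on the MEK inhibitor arrays. It was also lower with ERK inhibitor (limma, adjusted p = 0.00114) and in DN Ras cells (limma, adjusted p = 0.00068), where the fitted differences of −1.31 and −1.39 rest partly on arrays at background and are not exact sizes.

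MAX, the obligate partner of MYC, differed from control by 0.03, 0.22 and −0.10 with MEK inhibitor, ERK inhibitor and DN Ras, and none of these passed. The MXD proteins also pair with MAX and repress E-box genes. MXD1 rose only in the ERK inhibitor comparison among those with control, by 1.33 ± 0.12 (limma, adjusted p = 4.22e-06). It differed by 0.05 with MEK inhibitor and by 0.31 in DN Ras cells without passing, and its difference between MEK inhibitor and ERK inhibitor was itself past the threshold (−1.28, limma, adjusted p = 4.31e-06). MXD4 showed the other pattern: it rose by 1.20 with MEK inhibitor (limma, adjusted p = 0.00797) and by 1.15 in DN Ras cells (limma, adjusted p = 0.0139), and differed by −0.04 with ERK inhibitor. DN Ras replicate 3 was the highest MXD4 array, and without it the DN Ras change was 0.67 (limma, adjusted p = 0.0101). The DN Ras call was lost without control replicate 1 (limma, adjusted p = 0.0514), with no detection filter and in the fit to those 2 groups. MXD3 rose by 0.85 both with MEK inhibitor (limma, adjusted p = 0.00251) and in DN Ras cells (limma, adjusted p = 0.00392), and its 0.35 with ERK inhibitor did not pass.

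**Figure D2:**
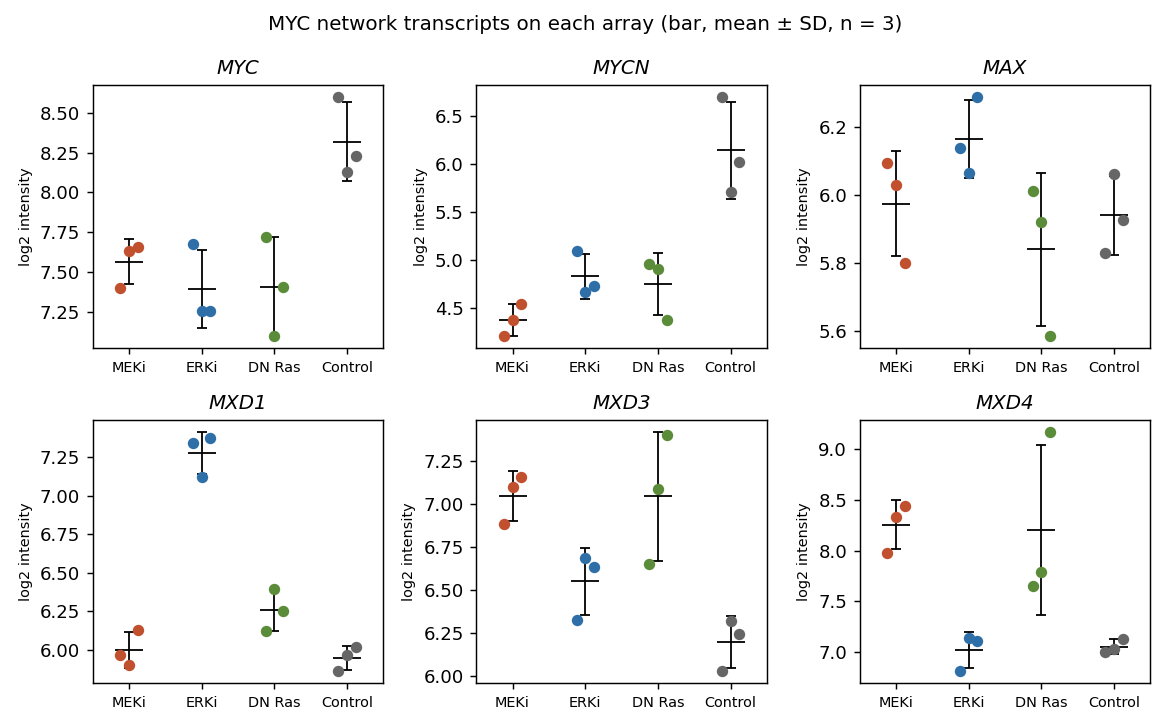
Log2 intensity (vertical axes, scaled per gene) of MYC, MYCN, MAX, MXD1, MXD3 and MXD4 on each array of the MEK inhibitor (MEKi), ERK inhibitor (ERKi), DN Ras and control groups. Points are arrays and bars are means ± SD of 3. All MYC and MYCN points of the inhibited groups lie below the control points, the MXD1 points lie highest under ERK inhibitor, and the MXD4 points lie highest under MEK inhibitor and DN Ras.

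Of the 41 measured members, 9 were lower and 0 higher with MEK inhibitor at the adjusted threshold (limma), or 22.0% lower, where 8.86% of all measured genes were lower and 7.11% higher. With ERK inhibitor 8 were lower and 0 higher, or 19.5% lower, where 5.48% of all genes were lower and 5.92% higher. In DN Ras cells 10 were lower and 0 higher, or 24.4% lower, where 6.45% of all genes were lower and 5.81% higher. Because the members were chosen with earlier results of these data known, these shares are descriptions and not a test of the set. The changes were small: apart from MYC, none of the members that passed fell by more than 0.74 on the log2 scale. The counts depended on single arrays, each of which is 1 of 3 in its group. Of these 27 calls, 8 passed in each of the 12 fits that left out 1 array: MYC in all 3 comparisons, NOP2 with MEK inhibitor and in DN Ras cells, HEATR1 with ERK inhibitor, and BOP1 and MRTO4 in DN Ras cells. With MEK inhibitor 2, 5 and 4 members were lower without control replicate 1, control replicate 3 and MEK inhibitor replicate 2. With ERK inhibitor 3, 2, 3 and 5 were lower without control replicate 1, control replicate 3, ERK inhibitor replicate 2 and ERK inhibitor replicate 3. In DN Ras cells 5, 5 and 6 were lower without control replicate 1, control replicate 3 and DN Ras replicate 2, and 8 without DN Ras replicate 3, the array that stood apart.

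The median difference over the 41 members was −0.18 with MEK inhibitor, −0.22 with ERK inhibitor and −0.26 in DN Ras cells, against medians over all genes of 0.01, −0.01 and 0.01. Values below 0 were found for 37, 39 and 32 of the 41, or 90.2%, 95.1% and 78.0%, against 49.0%, 51.5% and 48.3% of all genes. All 3 arrays lay below all 3 control arrays for 17 members with MEK inhibitor (41.5%, where all genes gave 19.3%), for 20 with ERK inhibitor (48.8%, where all genes gave 17.4%) and for 17 in DN Ras cells (41.5%, where all genes gave 15%). The reverse order was found for 0, 1 and 0 members, the 1 being URB2 with ERK inhibitor, where all genes gave 18.4%, 16.3% and 15.6%. Arrays were normalized to a common distribution, so each of these values is relative to the other transcripts on the array and a change in total RNA per cell would not be seen.

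Array by array, the median of the 40 members without MYC, taken relative to the control mean, was −0.25, −0.21 and −0.19 on the MEK inhibitor arrays, −0.22, −0.27 and −0.25 on the ERK inhibitor arrays and −0.15, −0.27 and −0.27 on the DN Ras arrays, against 0.04, −0.03 and −0.00 on the control arrays. Every inhibited array was thus below every control array, and DN Ras replicate 1 was the nearest to control. The number of the 40 members below their control mean ranged from 33 to 34 on MEK inhibitor arrays, 33 to 36 on ERK inhibitor arrays and 29 to 32 on DN Ras arrays, against 14 to 23 on control arrays. The control arrays make up the mean they are set against, so their values centre on 0 by construction. The median over all genes, taken the same way, lay between −0.02 and 0.02 on every array.

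**Figure D3:**
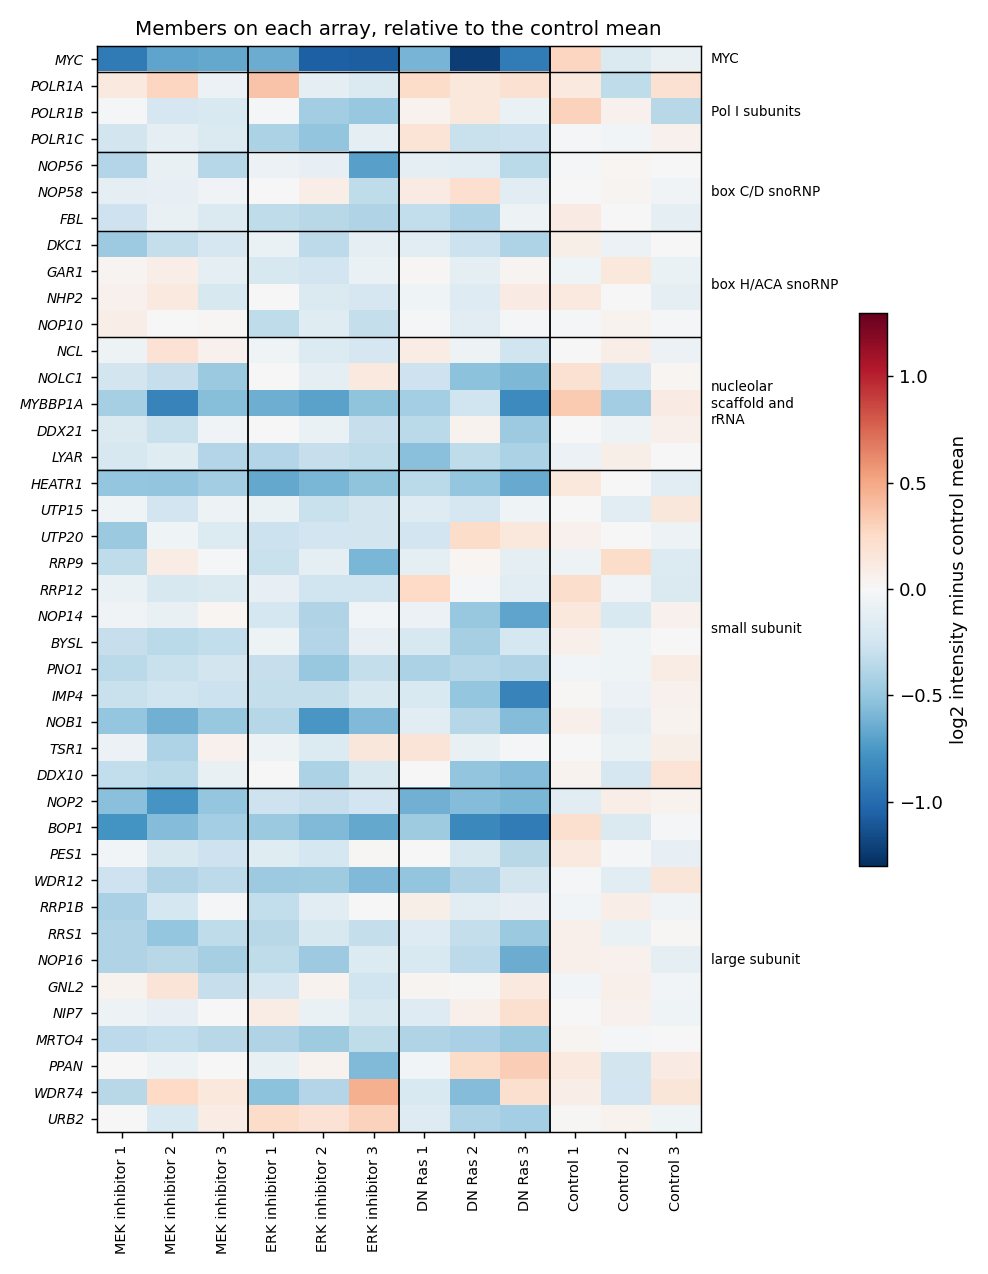
Log2 intensity minus the control mean (colour) of the 41 measured members (rows, grouped by role) on the 12 arrays (columns: 3 each of MEK inhibitor, ERK inhibitor, DN Ras and control). Rows such as MYC, HEATR1, BOP1 and MRTO4 are blue on all 9 inhibited arrays, while POLR1A, NCL and GNL2 show both colours.

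**Figure D4:**
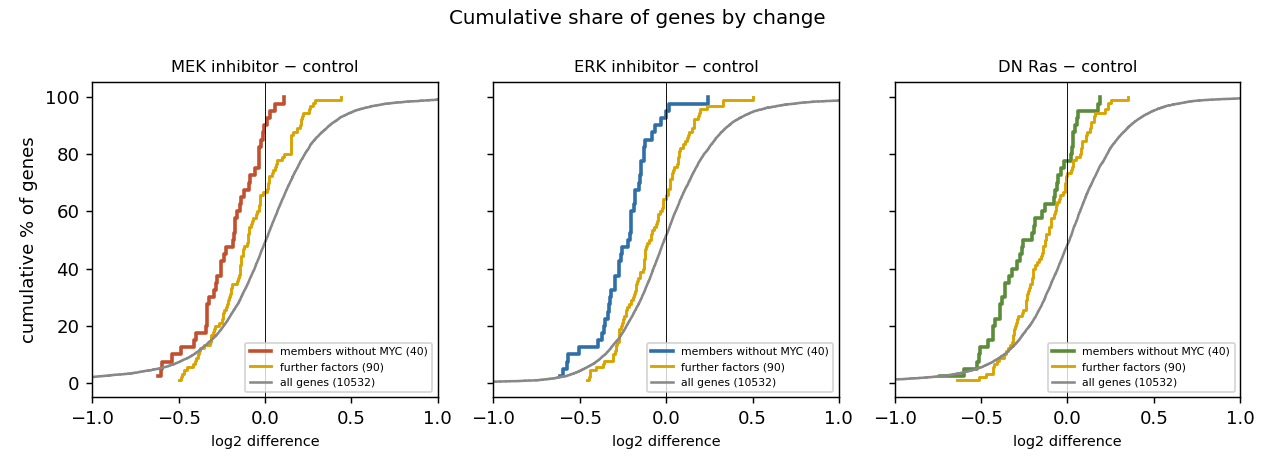
Cumulative percentage of genes (vertical axis) by log2 difference from control (horizontal axis, cropped at −1 and 1) for MEK inhibitor, ERK inhibitor and DN Ras, with 40 members without MYC (coloured), 90 further ribosome biogenesis factors (yellow) and all 10532 genes (grey). The member curve lies left of the other curves around its middle, with medians of −0.18, −0.21 and −0.23, against −0.10, −0.09 and −0.13 for the further factors.

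The RNA polymerase I subunits stood at the first step, transcription of the precursor. None of POLR1A, POLR1B and POLR1C, of which the first pair forms the catalytic core and POLR1C is shared with RNA polymerase III, passed in any comparison with control. POLR1C differed by −0.18, −0.35 and −0.13 with MEK inhibitor, ERK inhibitor and DN Ras, and POLR1B by −0.14, −0.32 and 0.03. POLR1A was dim, detected on 8 of 12 arrays, and its differences were 0.11, 0.02 and 0.19.

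The snoRNP proteins, which modify the precursor, included no member past the threshold in any comparison with control on its brightest probe. Among the box C/D proteins, which guide 2′-O-methylation, FBL, the methyltransferase itself, differed by −0.18, −0.36 and −0.26 with MEK inhibitor, ERK inhibitor and DN Ras, with an adjusted p of 0.0569 for ERK inhibitor (limma). The scaffold protein NOP56 differed by −0.28, −0.29 and −0.21, and its relative NOP58 by −0.09, −0.08 and 0.06. A further NOP56 probe fell by 0.48, 0.38 and 0.39 with adjusted p over all probes of 0.00745, 0.0371 and 0.0312, so the NOP56 call depends on the probe. Among the box H/ACA proteins, which guide pseudouridylation, DKC1, the pseudouridine synthase, differed by −0.33, −0.18 and −0.27. Its partners GAR1, NHP2 and NOP10 ranged from −0.26 to 0.03 over the 3 comparisons. Further probes of GAR1 and NHP2 went opposite ways, GAR1 0.46 with MEK inhibitor (adjusted p = 0.0202 over all probes) and NHP2 −0.44 with ERK inhibitor (adjusted p = 0.0293 over all probes).

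Measured members also included 5 proteins of the nucleolus that act around rRNA transcription and early processing. MYBBP1A, a nucleolar MYB-binding protein, fell by 0.62 ± 0.19 both with MEK inhibitor (limma, adjusted p = 0.036) and with ERK inhibitor (limma, adjusted p = 0.047), and its −0.51 in DN Ras cells did not pass. It was among the dimmest members, and its MEK inhibitor arrays overlapped the control arrays. Leaving out 1 array, its call was lost in 4 of 12 fits with MEK inhibitor (adjusted p up to 0.18) and in 6 of 12 with ERK inhibitor (adjusted p up to 0.199), and both calls were lost without background correction and with no detection filter. LYAR, a zinc-finger protein of precursor rRNA processing, fell by 0.43 ± 0.11 in DN Ras cells (limma, adjusted p = 0.0183), and its −0.25 with MEK inhibitor and −0.34 with ERK inhibitor did not pass. A further LYAR probe fell by 0.36 with MEK inhibitor (adjusted p = 0.0492 over all probes), while its −0.21 in DN Ras cells did not pass (adjusted p = 0.266 over all probes), so the call depends on the probe. The DN Ras call on the brightest probe was lost in 3 of 12 fits that left out 1 array. NCL, or nucleolin, and the RNA helicase DDX21 passed in no comparison, with values from −0.26 to 0.06.

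NOLC1, a chaperone of snoRNPs, differed between the inhibited groups. Its log2 intensity was 6.75, 6.68 and 6.50 in MEK inhibitor cells, 6.98, 6.86 and 7.11 in ERK inhibitor cells and 6.71, 6.45 and 6.40 in DN Ras cells, against 7.18, 6.76 and 7.01 in control cells. The DN Ras arrays lay below all ERK inhibitor and control arrays, while the ERK inhibitor arrays lay within the control range. NOLC1 fell by 0.46 ± 0.14 in DN Ras cells relative to control (limma, adjusted p = 0.0374) and differed by −0.46 between DN Ras and ERK inhibitor cells (limma, adjusted p = 0.039). The call against control was lost without control replicate 1 (limma, adjusted p = 0.16), control replicate 3 (0.103), DN Ras replicate 2 (0.101) and DN Ras replicate 3 (0.104). The call against ERK inhibitor was lost in 7 of 12 fits that left out 1 array, with DN Ras replicate 3 among those arrays.

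Of 12 measured small subunit factors, 2 were lower with MEK inhibitor, 3 with ERK inhibitor and 3 in DN Ras cells, or 16.7%, 25% and 25%, where 8.86%, 5.48% and 6.45% of all genes were lower. HEATR1, a large protein of the small subunit processome that is also needed for RNA polymerase I transcription, was lower under each. Its log2 intensity was 8.13, 8.12 and 8.17 in MEK inhibitor cells, 7.96, 8.03 and 8.11 in ERK inhibitor cells and 8.28, 8.12 and 7.97 in DN Ras cells, against 8.76, 8.64 and 8.49 in control cells. All 9 inhibited arrays lay below all control arrays. HEATR1 fell by 0.49 ± 0.12 with MEK inhibitor (limma, adjusted p = 0.00873), by 0.60 ± 0.12 with ERK inhibitor (limma, adjusted p = 0.00366) and by 0.50 ± 0.12 in DN Ras cells (limma, adjusted p = 0.00984). Without control replicate 1 its adjusted p was 0.0514 with MEK inhibitor and 0.0546 in DN Ras cells.

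NOB1 is the endonuclease that makes the final cut of 18S rRNA, and PNO1 is the protein that positions that end. NOB1 had log2 intensities of 6.60, 6.49 and 6.62 in MEK inhibitor cells, 6.74, 6.36 and 6.54 in ERK inhibitor cells and 6.97, 6.74 and 6.54 in DN Ras cells, against 7.18, 7.00 and 7.15 in control cells. It fell by 0.54 ± 0.13 with MEK inhibitor (limma, adjusted p = 0.0109) and by 0.57 ± 0.13 with ERK inhibitor (limma, adjusted p = 0.0127). NOB1 lost these calls in 2 and 3 of 12 fits that left out 1 array. Its −0.36 in DN Ras cells did not pass, although all 3 arrays lay below control. PNO1 fell by 0.37 ± 0.10 with ERK inhibitor (limma, adjusted p = 0.0335) and by 0.39 ± 0.10 in DN Ras cells (limma, adjusted p = 0.0234), and its −0.29 with MEK inhibitor did not pass. Both PNO1 calls were lost in some fits that left out 1 array, 5 and 3 of 12. IMP4, which helps U3 snoRNA pair with the precursor, fell by 0.52 ± 0.14 in DN Ras cells (limma, adjusted p = 0.0236), where replicate 3 was the lowest array and without which the change was −0.35 (limma, adjusted p = 0.0878), and its −0.28 with MEK inhibitor and −0.27 with ERK inhibitor did not pass.

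On their brightest probes the other 8 small subunit factors passed in no comparison with control. BYSL, a late assembly factor, differed by −0.32, −0.19 and −0.29 with MEK inhibitor, ERK inhibitor and DN Ras. A further probe of NOP14, a processome protein, fell by 0.60 with ERK inhibitor (adjusted p = 0.0373 over all probes). The brightest NOP14 probe differed by −0.04, −0.22 and −0.42, and the helicase DDX10 by −0.25, −0.20 and −0.36. UTP15, UTP20, RRP9, RRP12 and TSR1, of which RRP9 is a U3 snoRNP protein, ranged from −0.33 to 0.04.

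Of 13 measured large subunit factors, 5 were lower with MEK inhibitor, 3 with ERK inhibitor and 4 in DN Ras cells, or 38.5%, 23.1% and 30.8%, against the same shares of all genes. NOP2, a nucleolar methyltransferase of 28S rRNA, had log2 intensities of 9.30, 9.07 and 9.34 in MEK inhibitor cells, 9.57, 9.54 and 9.59 in ERK inhibitor cells and 9.21, 9.27 and 9.24 in DN Ras cells, against 9.70, 9.93 and 9.88 in control cells. The ERK inhibitor arrays lay between those of the other inhibited groups and control. NOP2 fell by 0.60 ± 0.11 both with MEK inhibitor (limma, adjusted p = 0.00146) and in DN Ras cells (limma, adjusted p = 0.00261), and its −0.27 with ERK inhibitor did not pass (adjusted p = 0.13). The differences of −0.33 between MEK inhibitor and ERK inhibitor and of −0.33 between DN Ras and ERK inhibitor had adjusted p-values of 0.0731 and 0.0718 (limma). A further NOP2 probe fell by 0.63, 0.56 and 0.51 with MEK inhibitor, ERK inhibitor and DN Ras (adjusted p over all probes of 0.00579, 0.0172 and 0.0257), and another by 0.45 with MEK inhibitor (adjusted p over all probes of 0.0285), with −0.40 and −0.38 for ERK inhibitor and DN Ras not passing.

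BOP1, PES1 and WDR12 form the PeBoW complex, which is needed to cut the spacer between 5.8S and 28S rRNA. BOP1 had log2 intensities of 9.03, 9.25 and 9.37 in MEK inhibitor cells, 9.33, 9.24 and 9.14 in ERK inhibitor cells and 9.35, 8.97 and 8.91 in DN Ras cells, against 10.02, 9.62 and 9.79 in control cells. It fell by 0.60 ± 0.14 with MEK inhibitor (limma, adjusted p = 0.00979), by 0.57 ± 0.14 with ERK inhibitor (limma, adjusted p = 0.0181) and by 0.74 ± 0.14 in DN Ras cells (limma, adjusted p = 0.00368). This was the largest change among the members after MYC in DN Ras cells. Leaving out 1 array, the BOP1 calls were lost in 1, 4 and 0 of 12 fits with MEK inhibitor, ERK inhibitor and DN Ras.

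WDR12 had log2 intensities of 8.44, 8.31 and 8.37 in MEK inhibitor cells, 8.24, 8.25 and 8.13 in ERK inhibitor cells and 8.20, 8.32 and 8.47 in DN Ras cells, against 8.69, 8.57 and 8.87 in control cells. All inhibited arrays lay below all control arrays. WDR12 fell by 0.50 ± 0.12 with ERK inhibitor (limma, adjusted p = 0.0114), which became 0.0619 without control replicate 3. It fell by 0.38 ± 0.12 in DN Ras cells (limma, adjusted p = 0.0444), and its −0.34 with MEK inhibitor did not pass. The DN Ras call was lost in 9 of 12 fits that left out 1 array and in 2 of 9 other settings. A further WDR12 probe differed by −0.34, −0.25 and −0.27 with MEK inhibitor, ERK inhibitor and DN Ras and did not pass (adjusted p = 0.112, 0.277 and 0.224 over all probes). PES1, the third subunit, differed by −0.17, −0.13 and −0.19 with MEK inhibitor, ERK inhibitor and DN Ras and did not pass.

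MRTO4, a relative of the ribosomal stalk protein RPLP0 that holds its place during assembly, had closely spaced arrays. Its log2 intensity was 8.26, 8.28 and 8.24 in MEK inhibitor cells, 8.21, 8.14 and 8.27 in ERK inhibitor cells and 8.21, 8.18 and 8.12 in DN Ras cells, against 8.63, 8.57 and 8.60 in control cells. It fell by 0.34 ± 0.10 with MEK inhibitor (limma, adjusted p = 0.0301), by 0.39 ± 0.10 with ERK inhibitor (limma, adjusted p = 0.0194) and by 0.43 ± 0.10 in DN Ras cells (limma, adjusted p = 0.0102). Leaving out 1 array, these MRTO4 calls were lost in 6, 3 and 0 of 12 fits. RRS1, which brings 5S rRNA into the large subunit, fell by 0.41 ± 0.11 with MEK inhibitor (limma, adjusted p = 0.0229), a call lost in 3 of 12 such fits. RRS1 differed by −0.29 and −0.32 with ERK inhibitor and DN Ras. NOP16 fell by 0.40 ± 0.13 with MEK inhibitor (limma, adjusted p = 0.0479), a call lost in 9 of 12 fits that left out 1 array and in 4 of 9 other settings. It differed by −0.33 and −0.39 with ERK inhibitor and DN Ras. A further NOP16 probe differed by −0.12 with MEK inhibitor and did not pass (adjusted p = 0.583 over all probes), so the call depends on the probe.

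RRP1B, GNL2, NIP7, PPAN and WDR74 passed in no comparison and ranged from −0.22 to 0.17. WDR74 had the widest standard error of the members, 0.24. URB2, known from yeast as an early large subunit factor, differed between the inhibited groups. Its log2 intensity was 7.18, 6.98 and 7.27 in MEK inhibitor cells, 7.42, 7.36 and 7.48 in ERK inhibitor cells and 7.01, 6.78 and 6.73 in DN Ras cells, against 7.19, 7.22 and 7.12 in control cells. The ERK inhibitor arrays lay above and the DN Ras arrays below all control arrays, although neither difference from control passed (0.24 and −0.34). DN Ras and ERK inhibitor cells differed by −0.58 ± 0.12 (limma, adjusted p = 0.00559), in each of the 12 fits that left out 1 array. The other URB2 probe differed by −0.28 in that comparison (adjusted p = 0.196 over all probes).

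**Figure D5:**
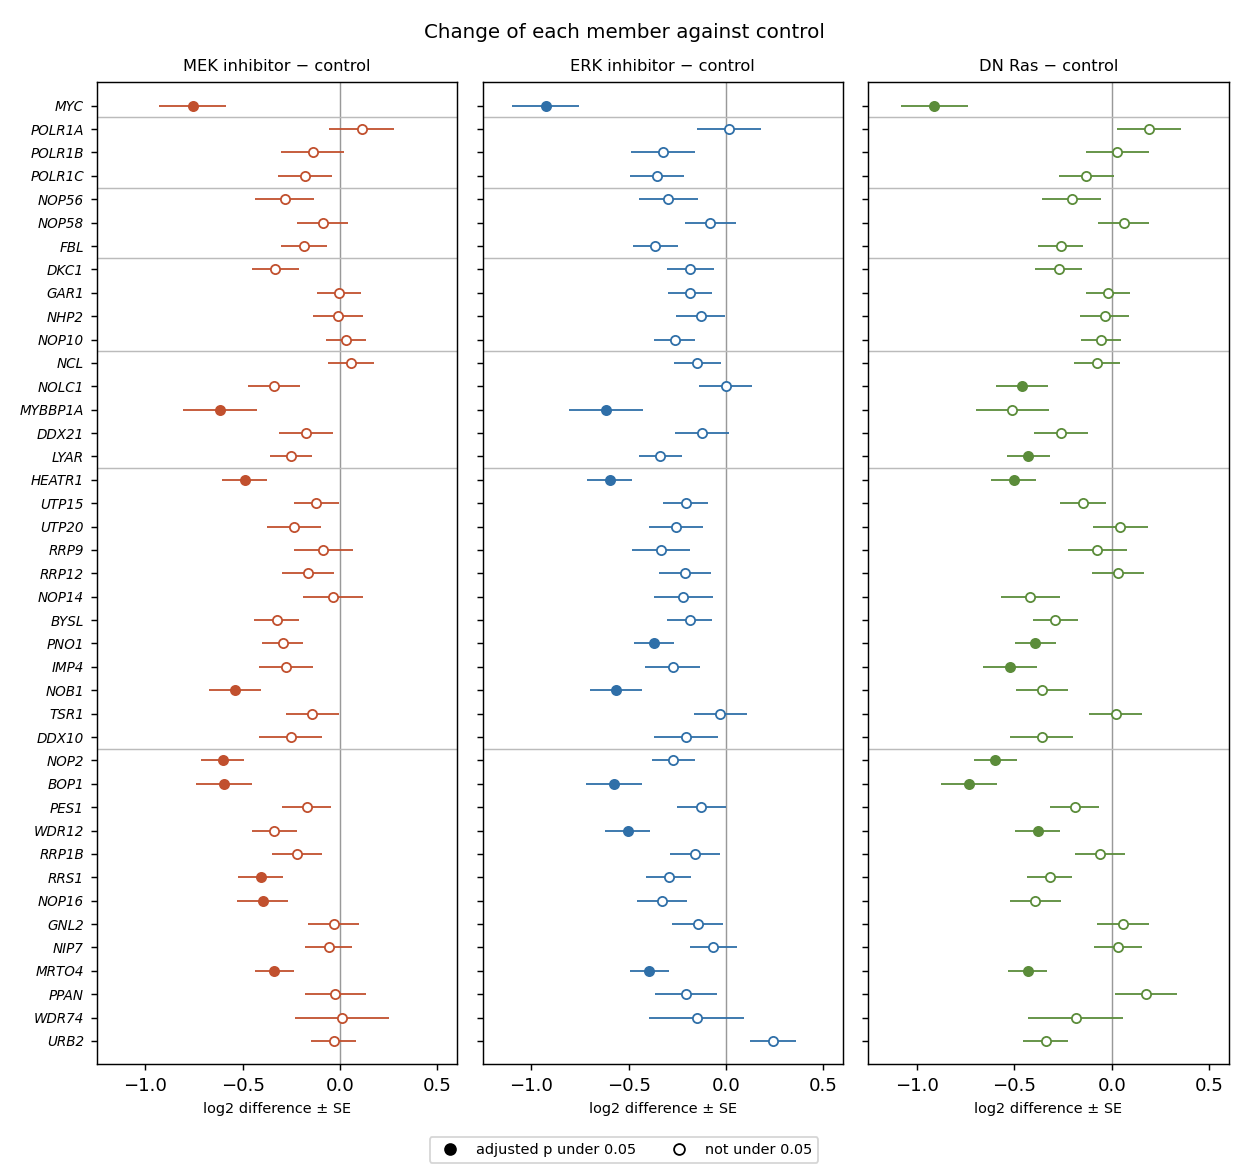
Log2 difference from control with its standard error (horizontal axes) for the 41 measured members (rows, grouped by role as in the text) with MEK inhibitor, ERK inhibitor and DN Ras. Filled points passed the adjusted threshold of 0.05: 9, 8 and 10 members, each left of 0. No polymerase or snoRNP point is filled.

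Between the inhibited groups few members separated. With MEK inhibitor relative to ERK inhibitor 0 members were lower and 0 higher (limma), where 6.69% of all genes were lower and 3.52% higher. In DN Ras relative to MEK inhibitor cells 0 were lower and 0 higher, where 1.91% of all genes were lower and 2.49% higher. In DN Ras relative to ERK inhibitor cells the 2 described above, NOLC1 and URB2, were lower and 0 higher, where 6.09% of all genes were lower and 4.79% higher. All 3 arrays lay below all 3 arrays of the other group for 3 members in each of these comparisons, where all genes gave 15.8%, 9.71% and 13.2%, and above them for 4, 0 and 1, where all genes gave 15.5%, 11.6% and 14.2%. The median differences over the 41 members were 0.05, −0.02 and 0.07 in these 3 comparisons.

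Of the 10 members that were lower in at least 1 comparison with control and had a promoter entry, 6 held an E-box, against 10 of the 23 not called lower, or 43.5%. Among all measured genes with a promoter entry, 12.8% held an E-box. HEATR1, NOB1, WDR12 and NOP16 held none. The median difference was −0.21 in the 16 members with an E-box and −0.14 in the 17 without with MEK inhibitor, −0.27 and −0.21 with ERK inhibitor, and −0.28 and −0.15 in DN Ras cells. The ranges overlapped broadly: with MEK inhibitor the members with an E-box ran from −0.62 to 0.03 and those without from −0.54 to 0.11. The ETS letters CCGGAAG and their complement CTTCCGG, which do not overlap the E-box in any of these windows, were in 13 of the 40 member windows, or 32.5%, against 17.6% of the windows of all measured genes. They were held by 1 of the 10 members called lower, or 10.0%, against 11 of the 23 not called lower, or 47.8%. Among all measured genes with a promoter entry, 23.3% held the ETS letters, and the difference between the member groups was not tested. The median difference was −0.11 in the 12 members with the ETS letters and −0.28 in the 21 without with MEK inhibitor, −0.23 and −0.26 with ERK inhibitor, and −0.06 and −0.36 in DN Ras cells.

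A wider list of ribosome biogenesis factors, 94 genes outside the 45, had 90 measured. Of these 6 were lower with MEK inhibitor, 4 with ERK inhibitor and 7 in DN Ras cells, or 6.67%, 4.44% and 7.78%, which lies near the shares of all genes given above. Their medians were −0.10, −0.09 and −0.13. TEX10, of a complex that acts on the large subunit, fell by 0.45, 0.44 and 0.39 with MEK inhibitor, ERK inhibitor and DN Ras (limma, adjusted p = 0.0195, 0.0287 and 0.046). Leaving out 1 array, these TEX10 calls were lost in 3, 4 and 9 of 12 fits, and the DN Ras call also in 3 of 9 other settings. NAT10, which acetylates 18S rRNA, fell by 0.44 with ERK inhibitor (limma, adjusted p = 0.017) and by 0.41 in DN Ras cells (limma, adjusted p = 0.0245), calls lost in 3 and 4 of 12 such fits. EMG1, a methyltransferase of 18S rRNA, fell by 0.51 in DN Ras cells (limma, adjusted p = 0.0102). The GTPase EFL1, which with SBDS frees new large subunits for translation, fell by 0.49 with MEK inhibitor (limma, adjusted p = 0.0146) and by 0.64 in DN Ras cells (limma, adjusted p = 0.00387). A further EFL1 probe differed by −0.19 and −0.11 in these comparisons and did not pass (adjusted p = 0.36 and 0.659 over all probes), so the call depends on the probe. SBDS, named here after its values were seen, was the 1 factor that rose, by 0.44 with MEK inhibitor (limma, adjusted p = 0.0453) and by 0.50 with ERK inhibitor (limma, adjusted p = 0.0334). Its calls were lost in 8 and 4 of the 12 fits that left out 1 array. Windows of these factors held an E-box in 23.9% and the ETS letters in 50.0%.

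Genes that MYC is known to activate outside ribosome assembly were listed as well, and 36 were measured. Of these 6 were lower and 1 higher with MEK inhibitor, 6 lower and 2 higher with ERK inhibitor, and 3 lower and 1 higher in DN Ras cells. The shares lower were 16.7%, 16.7% and 8.33%, where 8.86%, 5.48% and 6.45% of all genes were lower. SRM, the spermidine synthase, fell by 0.66, 0.46 and 0.73 in the 3 comparisons (limma, adjusted p = 0.00165, 0.0257 and 0.00144), and the ERK inhibitor call was lost in 5 of 12 fits that left out 1 array. SLC7A5, an amino acid transporter, rose by 0.59, 0.57 and 0.51 (limma, adjusted p = 0.00319, 0.00614 and 0.0115). CCND2, the cyclin D2 gene, had the list's lowest values, −3.6309, −1.162 and −1.8545 (limma, adjusted p = 1.23e-06, 0.0286 and 0.00154). Its MEK inhibitor value rests partly on arrays near background and is not an exact size. Its ERK inhibitor call was lost in 4 of 12 fits that left out 1 array. A further CCND2 probe differed by −1.8808, −0.9357 and −1.3415 (adjusted p over all probes of 3.2e-05, 0.0144 and 0.00124). The list thus held genes past the threshold in both directions, more of them lower.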

How the data were processed

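Biotinylated cRNA made from total RNA was read on Illumina bead arrays, 1 array a sample, per the labels' protocols. The deposited table gives each probe's mean bead intensity, not normalized, its bead number and a detection p-value per array. The submitters' processing notes name GenomeStudio, whose version and settings are not given here. The authors' processed intensity values were deposited too and served as an alternative.

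Groups came from the labels. Intensities were background corrected and quantile normalized with limma 3.58.1 (neqc, offset 16, log2) in R 4.3.3. Probes detected (p under 0.01) on all 3 arrays of any group were kept, 17099 of 47322. Of these 13885 had 1 gene symbol, and the brightest stood for its gene (10532 genes). limma was fitted to 4 group means over 12 arrays, with Benjamini-Hochberg adjustment over all genes. Whether the 3 samples of a group are separate cultures rests on the design text, and the number of arrays limits the precision. The calculations were tested on simulated data. Promoter windows were searched with Python 3.11.15.

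The members and lists were chosen with earlier results of these data known. MYC, the 5 members with the smallest adjusted p under 0.05 in each comparison and a few genes of the other lists by the same measure are given in detail. Alternatives were median scaling, no background correction (log2 of value plus 1), the authors' values floored at 16, 2 other detection filters, the mean of all kept probes, fits to the 2 groups compared, array weights, a replicate block and leaving out each array.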

Additional observations from a re-analysis of the deposited data

Results flagged for a closer look

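These differences between inhibited groups passed the adjusted threshold (limma) and are given as values. In DN Ras relative to ERK inhibitor cells the differences on the log2 scale were −0.46 for NOLC1, −0.58 for URB2, −0.41 for EFL1 and 0.55 for RCC1, a regulator of the GTPase Ran. The EFL1 difference had an adjusted p of 0.0475 (limma) and was lost in 10 of 12 fits that left out 1 array and in 7 of 9 other settings, and the other EFL1 probe differed by 0.03 (adjusted p = 0.92 over all probes). The RCC1 difference was lost in 2 of those 12 fits, and a dimmer RCC1 probe differed by 0.31 (adjusted p = 0.258 over all probes). MXD1 differed by −1.28 between MEK inhibitor and ERK inhibitor cells and by −1.02 between DN Ras and ERK inhibitor cells. MXD4 differed by 1.24 between MEK inhibitor and ERK inhibitor cells and by 1.19 between DN Ras and ERK inhibitor cells. The first MXD4 difference was lost without MEK inhibitor replicate 3 (limma, adjusted p = 0.053) and without ERK inhibitor replicate 1 (0.0508). The second was 0.70 without DN Ras replicate 3, and was lost without ERK inhibitor replicate 1 (limma, adjusted p = 0.0541), with no detection filter and in the fit to those 2 groups. CCND2, which encodes cyclin D2, differed by −2.47 between MEK inhibitor and ERK inhibitor cells and by 1.78 between DN Ras and MEK inhibitor cells. CCND2 was detected on 10 of 12 arrays. Its dimmest arrays were MEK inhibitor replicates 2 and 3, at 4.62 and 4.74. Both differences thus rest partly on values near background and are not exact sizes. Its other probe differed by −0.95 (adjusted p = 0.0145 over all probes) and by 0.54 (adjusted p = 0.204 over all probes), so the size of both differences and the call of the second depend on the probe.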

How the results depend on the processing

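MYC stayed lower in each comparison with control under every alternative run, including each of the 12 fits without 1 array, where its change ranged from −0.85 to −0.61 with MEK inhibitor, −1.07 to −0.78 with ERK inhibitor and −1.07 to −0.76 in DN Ras cells. No result reversed. Leaving out 1 array, the members lower numbered 2 (without control replicate 1) to 10 with MEK inhibitor, 2 (without control replicate 3) to 9 with ERK inhibitor, and 5 (without control replicate 1) to 14 (without DN Ras replicate 1) in DN Ras cells, and fewer arrays lower the power of each such fit. The same fits gave 0 to 1 members lower in DN Ras relative to MEK inhibitor cells, and 1 to 3 lower and 0 to 1 higher relative to ERK inhibitor cells. Their member medians ranged from −0.24 to −0.18 with MEK inhibitor and −0.27 to −0.21 with ERK inhibitor. The ERK inhibitor median was −0.25 with median scaling, −0.15 without background correction, −0.25 with the authors' values and −0.24 with array weights, and the MEK inhibitor median was −0.22 over all kept probes. For MEK inhibitor relative to ERK inhibitor, median scaling gave a median of 0.11 and 1 member higher, no background correction gave 1 lower and 1 higher, and no detection filter gave 1 higher. Members lower in DN Ras relative to ERK inhibitor cells numbered 1 with no detection filter, 1 in the fit to those 2 groups and 1 with array weights. With array weights 14 members were lower with MEK inhibitor and 13 with ERK inhibitor, and the fit to 2 groups gave 5 lower in DN Ras cells. The cause was not tested. Samples share only a number: 9 of 18 same-number pairs correlated over 0.1 (−0.185 to 0.331), and 7 of 12 arrays correlated best with their own number. With a replicate block 8, 8 and 10 members were lower with MEK inhibitor, ERK inhibitor and DN Ras. Dim members (POLR1A, MYBBP1A, UTP20 and RRP9) lie near background, which limits their precision.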
